A study of Mus musculus with 6 samples.

Results

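Transcript levels of the nuclear-encoded subunits of the respiratory chain and the ATP synthase were compared in mouse lung ILC2 (group 2 innate lymphoid cells, lymphocytes that lack antigen receptors) after engagement of the receptor GITR. The members were chosen by gene symbol. They comprise symbols that open with Ndufa, Ndufb, Ndufc, Ndufs or Ndufv and a digit, the symbols Sdha, Sdhb, Sdhc and Sdhd, and symbols that open with Uqcr, with Cox and a digit between 4 and 8, or with Atp5. This gave 84 of the 23183 listed genes, with 37 for complex I, 4 for complex II, 8 for complex III, 18 for complex IV and 17 for complex V. The treated cells were wild type (WT) primary lung ILC2 given DTA-1, an agonist antibody to GITR, a receptor of the TNF receptor family. The control was the same kind of cell given an IgG2b isotype antibody, and each group had 3 libraries. Both groups were also given IL-2, IL-7 and IL-33, each at 10 ng/ml, and were harvested at 24 h, so the control cells were cytokine-activated cells and not resting ones. Replicates were not said to come from separate animals or cultures, so p-values measure the spread between these libraries, which may be technical. Values were taken as FPKM (fragments scaled to transcript length and to library size). In bulk RNA, fewer cells of a type and less RNA per cell cannot be told apart.

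The respiratory chain sits in the inner mitochondrial membrane. Complex I oxidises NADH and complex II oxidises succinate, and both pass electrons to ubiquinone. Complex III passes them on to cytochrome c and complex IV to oxygen. Complexes I, III and IV pump protons, and complex V, the ATP synthase, lets protons flow back to make ATP. The mitochondrial genome encodes several central subunits of complexes I, III, IV and V, whereas complex II is encoded in the nucleus alone, so most chain complexes need transcripts from both genomes. Activated lymphocytes raise both glycolysis and respiration, and lung ILC2 are known to draw on fatty acids and amino acids as fuels. Genes of the mitochondrial genome were not analysed here.

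The libraries had totals of 574200 to 606720 FPKM and 14586 to 14939 genes above 0. A rough figure of 18900000 to 20700000 fragments per library came from the low values of 91 to 104 genes in each library. Only values within a fixed range entered it, and that range limits the answer, so the figure cannot establish the depth. IgG2b replicate 2 stood apart from the other libraries along GC content, so log2 fold changes of single genes are given with and without it. All 13 of the listed ILC2 markers were expressed, including Gata3 and Il1rl1. Il13 was above in every DTA-1 library (log2 fold change of DTA-1 over IgG2b 1.23; 1.12 without IgG2b replicate 2). Klrg1 (-1.73; -1.60 without it) and Il1rl1 (-0.46; -0.30 without it) were below in every DTA-1 library. Over all tested genes, 11.2% were above and 10.5% below in this way. With all libraries, groups of the other ILC2 markers overlapped, and 0 of the 13 had a limma adjusted p under 0.05. The summed level of B cell, myeloid, NK and ILC1, mast cell and fibroblast markers lay between 0 and 0.423 FPKM in DTA-1 libraries and between 0 and 0.428 FPKM in IgG2b libraries. Among T cell markers, Cd3g had 9.13, 7.83 and 7.07 FPKM in DTA-1 libraries, against 9.52, 10.2 and 9.35 FPKM in IgG2b libraries, while Cd3e, Cd4 and Cd8a were below 1 FPKM throughout. Pecam1 was present at 38.7, 19.9 and 22.2 FPKM in DTA-1 libraries, against 43.8, 31.5 and 32.3 FPKM in IgG2b libraries, with the endothelial marker Cdh5 at or near 0. The epithelial adhesion gene Epcam had 1.09, 1.85 and 1.61 FPKM in DTA-1 libraries, against 2.84, 4.34 and 4.24 FPKM in IgG2b libraries, with Sftpc and Scgb1a1 at or near 0. The summed level of 5 proliferation markers (Mki67, Top2a, Pcna, Mcm5 and Ccnb1) was 328 to 364 FPKM in DTA-1 libraries and 496 to 815 FPKM in IgG2b libraries, with all 5 lower in every DTA-1 library. The part of these differences in the values of the respiratory chain genes was not tested.

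The respiratory chain genes were abundant, and their levels differed between complexes. Over all 6 libraries the median member of complex V stood at 326 FPKM, followed by complex IV at 262, complex III at 163, complex I at 99.3 and complex II at 89.6 FPKM. Together the 84 genes made up 2.66, 2.53 and 2.61% of the summed FPKM in DTA-1 libraries, against 2.62, 2.58 and 2.73% in IgG2b libraries. The shares of the groups thus overlapped. Of the 84 members, 79 passed the filter of at least 1 FPKM in at least 3 libraries. The other 5 were Cox4i2 and Ndufa4l2, both below 1 FPKM throughout, and Cox7b2, Cox8b and Cox8c, which were listed at 0 in all 6 libraries. Within complex I, the 7 core subunits, which carry the redox centres of the peripheral arm and have bacterial counterparts, had a median level of 67.9 FPKM, against 117 FPKM for the 28 accessory subunits. Shorter transcripts tended to have higher levels (Spearman's rho -0.36 across 79 members, given as a description, since the genes share libraries and FPKM divides by length).

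**Figure D1:**
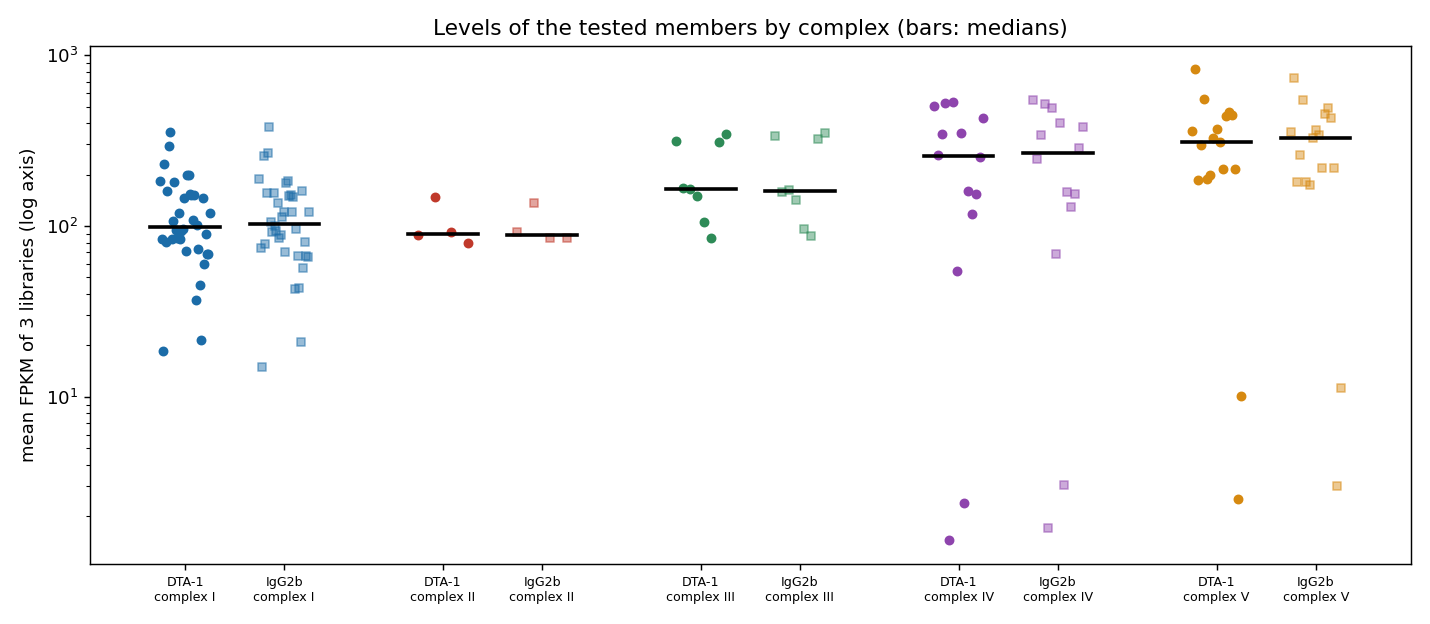
Mean FPKM of each of the 79 members above the filter, on a log axis, for complexes I to V, with DTA-1 (circles) left of IgG2b (squares) in each complex; each point is the mean of 3 libraries and bars are medians over members. Complexes IV and V lie highest, and the medians of the groups lie close together in each complex.

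No respiratory chain gene passed the test between DTA-1 and IgG2b. In limma on log2(FPKM + 1), with Benjamini-Hochberg adjustment over 10501 genes, 0 of 79 members had an adjusted p under 0.05, against 0.0381% of all genes (4 genes), and 0 of 79 had an unadjusted p under 0.05, against 14% of all genes. The smallest adjusted p of a member was 0.387, for Ndufb4. Fold changes of the members, given as DTA-1 over IgG2b, were small in either direction, with log2 values between -0.31 and 0.34. In 44 of 79 members (55.7%) the log2 fold change was above 0, against 52.6% of all genes. The median log2 fold change was 0.04 for complex I, 0.02 for complex II, 0.02 for complex III, -0.06 for complex IV and 0.02 for complex V, beside 0.02 for all members and 0.01 for all tested genes. Without IgG2b replicate 2 it was 0.05 for complex I, 0.01 for complex II, -0.02 for complex III, -0.04 for complex IV and -0.0033 for complex V. The negative median of complex IV rested on few members. It was 0.0055 with either filter that drops the low members Cox6a2 and Cox7a1 (a mean of at least 5 or 20 FPKM), and -0.0058 without Cox7a2l, which is no structural subunit. A p above the threshold does not show that levels were equal, so the intervals are given too. In 67 of 79 members (84.8%) the 95% interval lay within a 1.5-fold change either way, against 65.7% of all tested genes. This held for 30 of 36 tested members of complex I, 4 of 4 of complex II, 8 of 8 of complex III, 10 of 14 of complex IV and 15 of 17 of complex V. For the other 12 members a change of 1.5-fold lay inside the interval. Without IgG2b replicate 2 the interval lay within 1.5-fold in 75 of 79 members (94.9%), against 68.4% of all tested genes, and 43 of 79 log2 fold changes (54.4%) were above 0, against 54% of all tested genes.

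**Figure D2:**
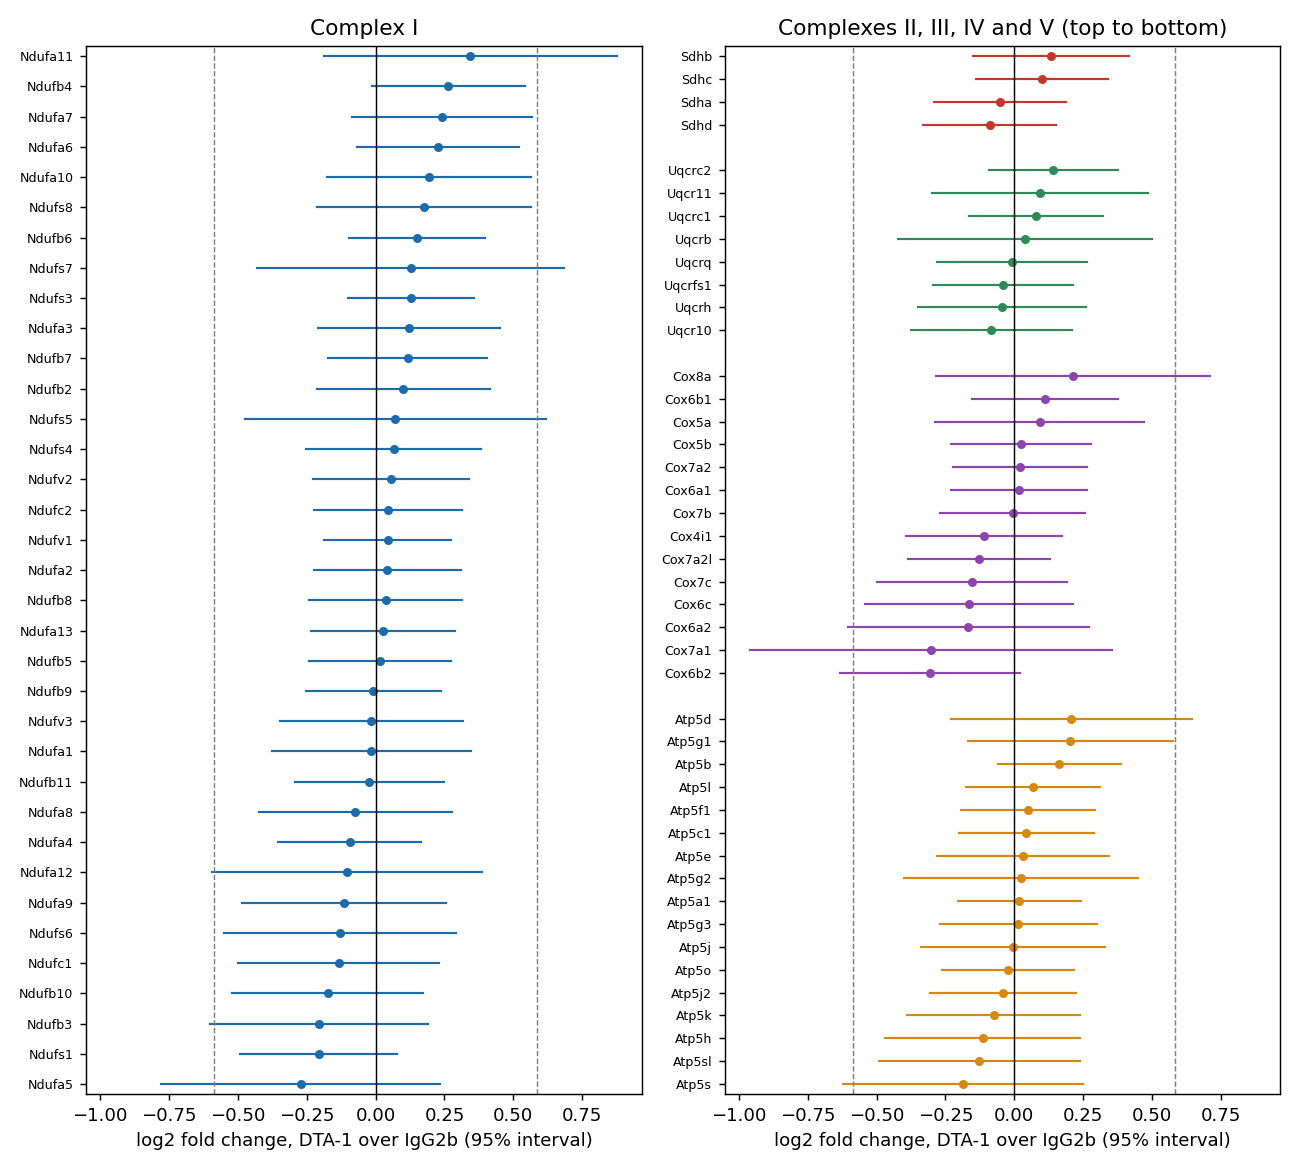
Log2 fold change of DTA-1 over IgG2b (points) with its 95% interval (lines) for 78 of the 79 tested members, complex I on the left and complexes II to V on the right. Dashed lines mark a 1.5-fold change either way; every interval plotted includes 0 and 66 stay within the dashed lines.

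Few members had groups that did not overlap. In 5 of 79 members (6.33%) all DTA-1 values lay above all IgG2b values, against a background of 11.2% of tested genes, and in 0 of 79 all DTA-1 values lay below, against 10.5% of tested genes (21.6% in either direction). Among the members entirely above were Ndufb6 and Ndufs3 of complex I, Uqcrc2 of complex III and Atp5b of complex V. With 3 libraries against 3, an exact two-sided permutation test of 1 gene cannot go below p = 0.1. The counts depended on single libraries, also over all genes. The members entirely above numbered 5, 7 and 14 without DTA-1 replicate 1, 2 or 3, and 6, 11 and 12 without IgG2b replicate 1, 2 or 3. Those entirely below numbered 5, 1 and 3 without DTA-1 replicate 1, 2 or 3, and 6, 8 and 2 without IgG2b replicate 1, 2 or 3. Over all tested genes, the share entirely above was 15, 13.2 and 16.2% without DTA-1 replicate 1, 2 or 3, and 16.6, 19.1 and 17.8% without IgG2b replicate 1, 2 or 3. The share entirely below was 15.1, 12 and 14% without DTA-1 replicate 1, 2 or 3, and 14.8, 16 and 17% without IgG2b replicate 1, 2 or 3. Without IgG2b replicate 2, Ndufb4 (log2 fold change 0.32) and Ndufa6 (0.31) were above at an unadjusted p under 0.05. Atp5sl (-0.29), which is no structural subunit of its complex, was below at that level. The share of all tested genes at that level was 15.5% in either direction, and the limma adjusted p of these 3 members lay between 0.237 and 0.298. Without DTA-1 replicate 1, 3 complex IV isoforms, Cox6a2, Cox6b2 and Cox7a1, were below at that level (9.71% of all tested genes in either direction), with limma adjusted p between 0.393 and 0.505. Without IgG2b replicate 1 it was Ndufa5 (limma adjusted p = 0.331; 12.9% of all tested genes), and without IgG2b replicate 3 it was Cox6b2 (limma adjusted p = 0.291; 15.7% of all tested genes).

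Complex I, which takes electrons from NADH, had 37 members, 36 of them tested. Ndufa4, which carries a complex I symbol but is known as a subunit of complex IV, was the most abundant at 355 ± 15.7 FPKM with DTA-1 and 379.6 ± 35.4 FPKM with IgG2b (SD, n = 3 each). The accessory subunit Ndufa3 followed at 292 ± 49.8 FPKM with DTA-1 and 266 ± 16.6 FPKM with IgG2b, and Ndufa12 at 229.6 ± 10.1 FPKM with DTA-1 and 256 ± 87.1 FPKM with IgG2b. Ndufa11, an accessory subunit of the membrane arm, was the lowest tested member. It had 20.03, 19.7 and 16.3 FPKM in DTA-1 libraries, against 16.8, 9.47 and 18.7 FPKM in IgG2b libraries (log2 fold change 0.34 ± 0.23, limma adjusted p = 0.572; 0.06 without IgG2b replicate 2), and the low value of IgG2b replicate 2 carried most of both the spread of its control group and its fold change. Ndufs3, a core subunit of the arm that binds ubiquinone (GRCm38, chr2:90894634-90904827), had 75.8, 71.5 and 73.3 FPKM in DTA-1 libraries, against 65.95, 67.6 and 68.04 FPKM in IgG2b libraries (log2 fold change 0.13 ± 0.10, limma adjusted p = 0.646; 0.13 without IgG2b replicate 2). The accessory subunit Ndufb6 (chr4:40270591-40279421) had 189, 208 and 199.7 FPKM in DTA-1 libraries, against 166, 186 and 186 FPKM in IgG2b libraries (log2 fold change 0.15 ± 0.11, limma adjusted p = 0.61; 0.18 without IgG2b replicate 2). Its DTA-1 values were higher in all 3 libraries, while 39.0% of its exon bases are shared with Smim27 on the opposite strand, so part of its reads could belong to that gene. In the other direction the member of complex I with the smallest p was Ndufs1, the core subunit that carries several iron-sulfur clusters, with 35.5, 36.7 and 38.2 FPKM in DTA-1 libraries, against 42.1, 48.5 and 37.8 FPKM in IgG2b libraries (log2 fold change -0.21 ± 0.12, limma adjusted p = 0.523; -0.11 without IgG2b replicate 2). Its groups overlapped. Ndufb4, named after its values were seen for the smallest p of all members, had 159.8, 146 and 130.2 FPKM in DTA-1 libraries, against 118, 131 and 113 FPKM in IgG2b libraries (log2 fold change 0.26 ± 0.12, 95% interval -0.01 to 0.54, limma adjusted p = 0.387; 0.32 without IgG2b replicate 2). The lowest DTA-1 library and the highest IgG2b library of Ndufb4 nearly coincide, at 130.2 and 130.8 FPKM.

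Complex II, the succinate dehydrogenase that also serves the tricarboxylic acid cycle, had 4 members and all were tested. The catalytic flavoprotein Sdha had 91.1, 86.2 and 89.0 FPKM in DTA-1 libraries, against 89.7, 98.3 and 88.3 FPKM in IgG2b libraries (log2 fold change -0.05 ± 0.10, limma adjusted p = 0.879; -0.0043 without IgG2b replicate 2). The iron-sulfur subunit Sdhb had 147, 144 and 153 FPKM in DTA-1 libraries, against 138, 117 and 151 FPKM in IgG2b libraries (log2 fold change 0.13 ± 0.12, limma adjusted p = 0.708; 0.03 without IgG2b replicate 2). The DTA-1 libraries of Sdhb lay closer together than the IgG2b libraries, and the groups overlapped. The membrane anchor Sdhc had 95.98, 93.8 and 86.1 FPKM in DTA-1 libraries, against 83.1, 87.7 and 86.1 FPKM in IgG2b libraries (log2 fold change 0.10 ± 0.10, limma adjusted p = 0.743; 0.12 without IgG2b replicate 2). The other anchor, Sdhd, had 78.9, 82.99 and 76.6 FPKM in DTA-1 libraries, against 89.5, 79.8 and 84.8 FPKM in IgG2b libraries (log2 fold change -0.09 ± 0.11, limma adjusted p = 0.782; -0.13 without IgG2b replicate 2). DTA-1 replicates 1 and 2 lay above all IgG2b libraries for Sdhc, DTA-1 replicates 1 and 3 lay below all of them for Sdhd, and the groups of both genes overlapped. The 95% intervals of all 4 genes lay within 1.5-fold either way.

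Complex III, which hands electrons from ubiquinol to cytochrome c, had 8 members. Its small supernumerary subunits Uqcrq, Uqcr10 and Uqcrh were highest. Uqcrq had 345 ± 11.3 FPKM with DTA-1 and 348 ± 39.7 FPKM with IgG2b (SD, n = 3 each), Uqcr10 had 316 ± 23.3 FPKM with DTA-1 and 336 ± 40.3 FPKM with IgG2b, and Uqcrh, the hinge protein, had 312 ± 19.2 FPKM with DTA-1 and 323 ± 45.7 FPKM with IgG2b. Uqcrfs1, the Rieske iron-sulfur protein that carries electrons within the complex, was the lowest, at 84.8 ± 6.87 FPKM with DTA-1 and 87.1 ± 3.63 FPKM with IgG2b. Uqcrc2, a core subunit (chr7:120635176-120659524), had 107, 108 and 103 FPKM in DTA-1 libraries, against 101, 92.7 and 93.8 FPKM in IgG2b libraries (log2 fold change 0.14 ± 0.10, limma adjusted p = 0.612; 0.12 without IgG2b replicate 2). The 3 DTA-1 values all lay above the IgG2b values, and 19.7% of its exon bases overlap Pdzd9, a gene on the opposite strand at 0.517 FPKM. Uqcr10 had the smallest p among members of complex III with a negative log2 fold change (log2 fold change -0.08 ± 0.13, limma adjusted p = 0.834; -0.18 without IgG2b replicate 2), and its groups overlapped. All 8 intervals lay within 1.5-fold either way.

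Complex IV, cytochrome c oxidase, has paired isoforms for several subunits, so its members also show which isoforms were transcribed. The widely expressed forms had the higher levels. Cox4i1, a regulatory subunit, had 533, 489 and 485 FPKM in DTA-1 libraries, against 613, 479 and 542 FPKM in IgG2b libraries (log2 fold change -0.11 ± 0.12, limma adjusted p = 0.763; -0.20 without IgG2b replicate 2), while Cox4i2, the form known from lung tissue and low oxygen, was at 0.0969, 0 and 0 FPKM in DTA-1 libraries, against 0.287, 0 and 0 FPKM in IgG2b libraries. Cox6a1 had 526 ± 21.9 FPKM with DTA-1 and 520.1 ± 37.7 FPKM with IgG2b and Cox6b1 532 ± 53.2 FPKM with DTA-1 and 491 ± 24.3 FPKM with IgG2b (SD, n = 3 each). The muscle and heart form Cox6a2 had 2.15, 1.11 and 1.10 FPKM in DTA-1 libraries, against 1.56, 1.52 and 2.06 FPKM in IgG2b libraries. Cox6b2, known as the form of testis, was present at 61.3, 52.7 and 50.6 FPKM in DTA-1 libraries, against 80.03, 64.9 and 60.1 FPKM in IgG2b libraries (log2 fold change -0.31 ± 0.14, 95% interval -0.63 to 0.02, limma adjusted p = 0.393; -0.34 without IgG2b replicate 2). The highest DTA-1 value of Cox6b2, 61.3 FPKM, lay just above the lowest IgG2b value, 60.1 FPKM. Cox7a2, the widely expressed form, stood at 161 ± 8.10 FPKM with DTA-1 and 159 ± 8.99 FPKM with IgG2b, and Cox7a2l, known for joining complexes III and IV in supercomplexes, at 118 ± 9.43 FPKM with DTA-1 and 129 ± 8.04 FPKM with IgG2b. Cox7a1, the muscle form, had 4.01, 1.45 and 1.70 FPKM in DTA-1 libraries, against 4.14, 2.63 and 2.33 FPKM in IgG2b libraries (log2 fold change -0.30 ± 0.29, limma adjusted p = 0.716; -0.37 without IgG2b replicate 2), with 1 library of each group above 4 FPKM. Cox7b had 153 ± 9.09 FPKM with DTA-1 and 154 ± 13.5 FPKM with IgG2b. Cox8a, the widely expressed form of its subunit, had 435, 476 and 381 FPKM in DTA-1 libraries, against 441, 257 and 447 FPKM in IgG2b libraries (log2 fold change 0.21 ± 0.22, limma adjusted p = 0.738; -0.05 without IgG2b replicate 2). It was lowest in IgG2b replicate 2, without which its log2 fold change had the other sign, and its groups overlapped. In this complex 6 of 14 log2 fold changes were above 0.

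Complex V, the ATP synthase, contained the most abundant respiratory chain transcript, Atp5b, which encodes the catalytic beta subunit (chr10:128083273-128090391). Atp5b had 842, 823 and 806 FPKM in DTA-1 libraries, against 754, 715 and 738 FPKM in IgG2b libraries, and every DTA-1 library lay above every IgG2b library (log2 fold change 0.16 ± 0.10, 95% interval -0.06 to 0.39, limma adjusted p = 0.52; 0.14 without IgG2b replicate 2). Atp5e, the epsilon subunit, had 555 ± 20.3 FPKM with DTA-1 and 547 ± 87.5 FPKM with IgG2b, and Atp5k, a small subunit of the membrane part, 466 ± 61.1 FPKM with DTA-1 and 489.8 ± 52.7 FPKM with IgG2b (SD, n = 3 each). The catalytic partner of Atp5b, Atp5a1, the alpha subunit, was nearly even at 362, 363 and 354 FPKM in DTA-1 libraries, against 355, 362 and 349 FPKM in IgG2b libraries (log2 fold change 0.02 ± 0.10; 0.03 without IgG2b replicate 2), named after its values were seen. The c ring, the rotor through which protons pass, is built from an identical protein made from 3 genes. Of their summed FPKM, Atp5g3 gave 42.2, 38.1 and 43.3% in DTA-1 libraries, against 41.4, 45.5 and 40.3% in IgG2b libraries. Atp5g2 gave 35.8, 38.9 and 35.04% in DTA-1 libraries, against 38.4, 34.9 and 39.2% in IgG2b libraries. Atp5g1 gave 22.0, 23.0 and 21.7% in DTA-1 libraries, against 20.2, 19.6 and 20.4% in IgG2b libraries, so its share was higher in every DTA-1 library. The levels of the 3 genes did not pass the test (log2 fold change 0.20 ± 0.16, 0.02 ± 0.19 and 0.02 ± 0.12 for Atp5g1, Atp5g2 and Atp5g3). Without IgG2b replicate 2 these were 0.03, -0.18 and -0.09, and all DTA-1 values of Atp5g2 then lay below the IgG2b values. Atp5s, a low transcript that shares the symbol but is no structural subunit, had 2.87, 1.79 and 2.93 FPKM in DTA-1 libraries, against 2.62, 3.84 and 2.56 FPKM in IgG2b libraries (log2 fold change -0.19 ± 0.19, limma adjusted p = 0.74; -0.04 without IgG2b replicate 2).

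**Figure D3:**
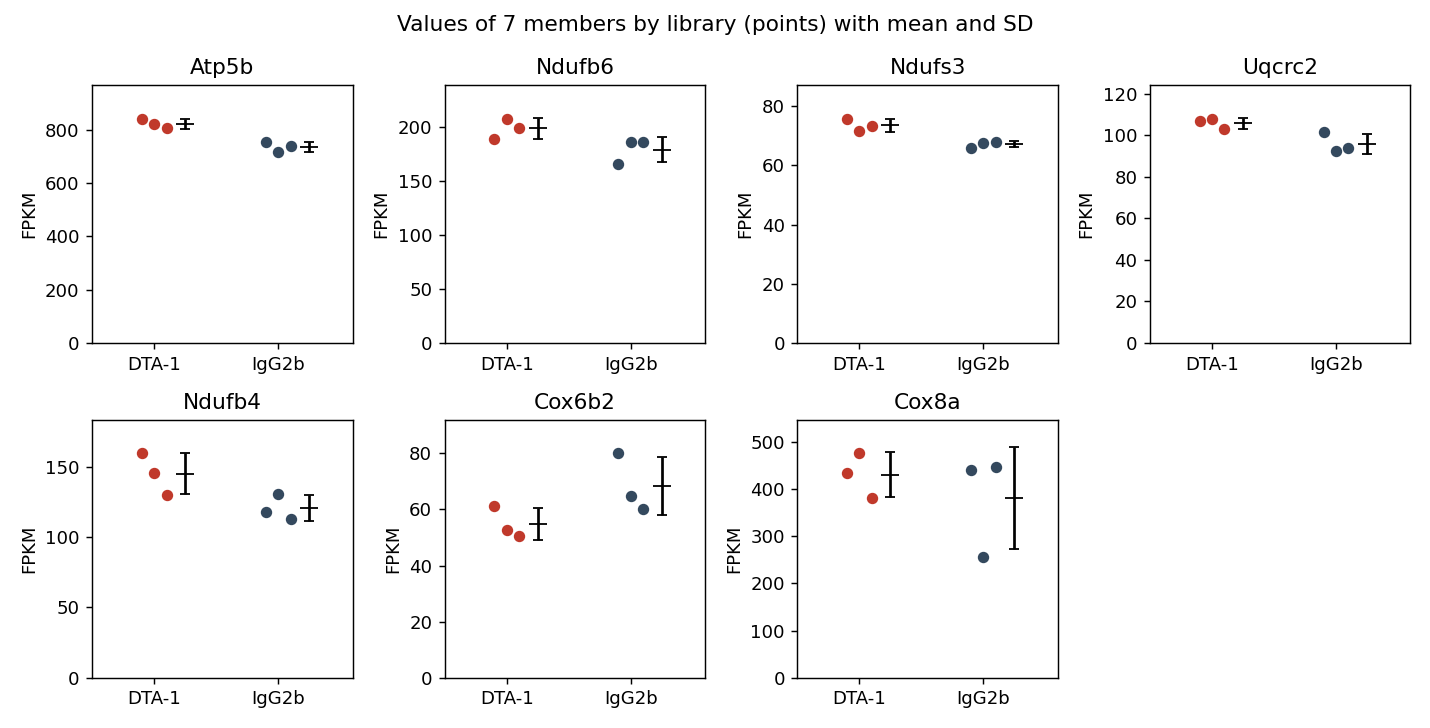
FPKM by library (points; DTA-1 left, IgG2b right) with mean and SD for Atp5b, Ndufb6, Ndufs3 and Uqcrc2, whose groups did not overlap, and for Ndufb4, Cox6b2 and Cox8a; axes start at 0. Cox8a was lowest in IgG2b replicate 2, at 257 FPKM.

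In IgG2b replicate 2 the levels of respiratory chain genes deviated along base composition. It was the highest of the 6 libraries for 25 of 79 members (31.6%) and the lowest for 31 (39.2%), against 28% and 28.1% of all genes. Relative to the mean of the other 5 libraries, its members had an SD of 0.354 on the log2 scale, against 0.123 to 0.189 in the other libraries. Across 10451 genes the SDs were closer, at 0.385 in IgG2b replicate 2, 0.377 in IgG2b replicate 1 and 0.364 in DTA-1 replicate 1. The other libraries had 0.206 to 0.234. Across the 79 members, this deviation had a Spearman's rho of -0.55 with the GC content of the coding sequence and -0.44 with that of the transcript. Across 10451 genes these were -0.56 and -0.59, and all are given as descriptions. In each of the other 5 libraries rho for the coding GC content of members lay between -0.39 and 0.47. The lowest members in that library were Ndufa11 (-0.88), Ndufs7 (-0.83), Cox8a (-0.76) and Atp5d (-0.63), and the highest were Ndufa5 (0.76), Ndufa12 (0.69) and Ndufb3 (0.53), all named after their values were seen. Ndufs7, the core subunit next to the ubiquinone site, had 63.3, 57.4 and 58.6 FPKM in DTA-1 libraries, against 68.4, 34.9 and 67.8 FPKM in IgG2b libraries. Ndufa5, an accessory subunit, had 76.8, 81.7 and 93.4 FPKM in DTA-1 libraries, against 74.2, 143 and 97.6 FPKM in IgG2b libraries. For Ndufs7 the other 2 IgG2b libraries lay above every DTA-1 library, and its log2 fold change was 0.13 with IgG2b replicate 2 and -0.19 without it. For Ndufa5 the other 2 IgG2b libraries lay to either side of the DTA-1 values, and its log2 fold change was -0.27 with IgG2b replicate 2 and -0.02 without it. In 27 of 79 members the log2 fold change had the other sign without this library, 14 of them negative and 13 positive. The median SD of members within a group was 0.079 (log2) in DTA-1 libraries and 0.178 in IgG2b libraries, and 0.069 in IgG2b libraries without replicate 2. The rho of fold change with coding GC content was 0.25 with all 6 libraries and -0.27 without IgG2b replicate 2. For transcript GC content it was 0.24 and -0.17 across members, and 0.23 and -0.07 across 10451 genes. Fold changes of members without that library thus still varied with GC content, in the other direction. What sets this library apart was not tested. Whole coding sequences had a GC content of 65.2% in Cox8a, 61.6% in Ndufs7, 47.4% in Ndufa5 and 48.7% in Ndufb3. The difference was smaller between Ndufa11 (58.7%) and Ndufa12 (51.0%), and Cox6a1, with 64.9%, deviated by only 0.09. The first 120 coding bases of 2 members low in that library and 2 members high in it are given as picked examples, with G and C in capitals. The GC content of these stretches was 70.0% in Cox8a, 66.7% in Ndufs7, 48.3% in Ndufa5 and 45.8% in Ndufb3. They are given 5′ to 3′ from GENCODE transcripts on GRCm38, where the genes lie at chr19:7215153-7217616 (minus strand), chr10:80249121-80256794 (plus strand), chr6:24518666-24528013 (minus strand) and chr1:58586384-58595964 (plus strand).
Cox8a: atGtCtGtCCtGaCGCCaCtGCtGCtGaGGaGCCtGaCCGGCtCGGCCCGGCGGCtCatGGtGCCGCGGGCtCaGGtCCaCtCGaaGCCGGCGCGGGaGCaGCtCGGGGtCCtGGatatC
Ndufs7: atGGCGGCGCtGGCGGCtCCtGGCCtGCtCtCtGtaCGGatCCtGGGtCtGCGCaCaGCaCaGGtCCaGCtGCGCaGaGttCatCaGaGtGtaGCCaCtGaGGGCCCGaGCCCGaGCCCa
Ndufa5: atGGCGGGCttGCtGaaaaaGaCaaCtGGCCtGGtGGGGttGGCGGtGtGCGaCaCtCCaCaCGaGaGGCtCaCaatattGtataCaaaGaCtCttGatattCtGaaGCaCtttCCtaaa
Ndufb3: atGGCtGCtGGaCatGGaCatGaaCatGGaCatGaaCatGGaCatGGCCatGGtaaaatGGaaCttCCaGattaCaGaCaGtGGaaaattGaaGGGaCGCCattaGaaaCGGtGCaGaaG

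**Figure D4:**
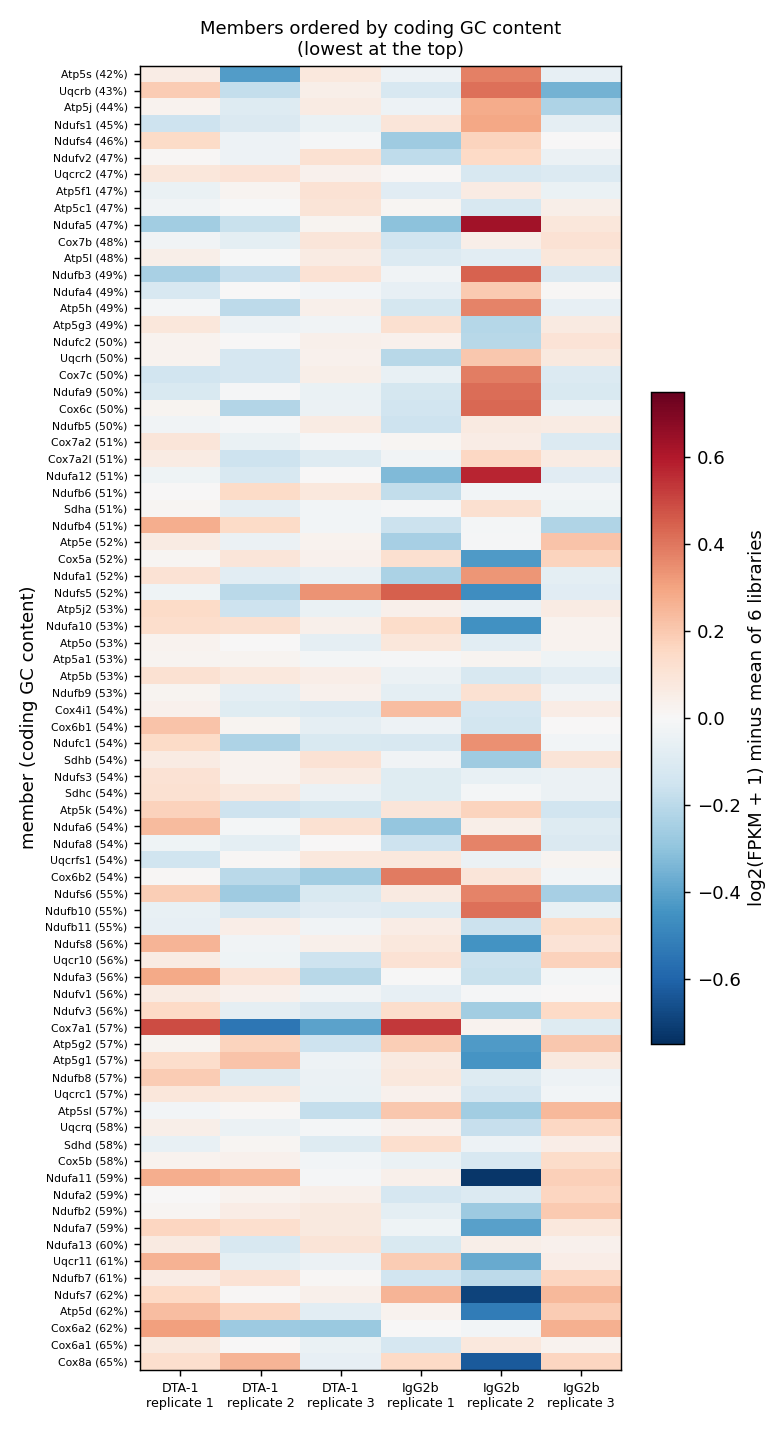
Log2(FPKM + 1) of 78 of the 79 tested members minus the mean of 6 libraries (colour), with members ordered from the lowest coding GC content at the top to the highest at the bottom; columns are DTA-1 replicates 1 to 3, then IgG2b replicates 1 to 3. Most of the strongest colours lie in IgG2b replicate 2, mainly high in the upper rows and low in the lower rows.

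**Figure D5:**
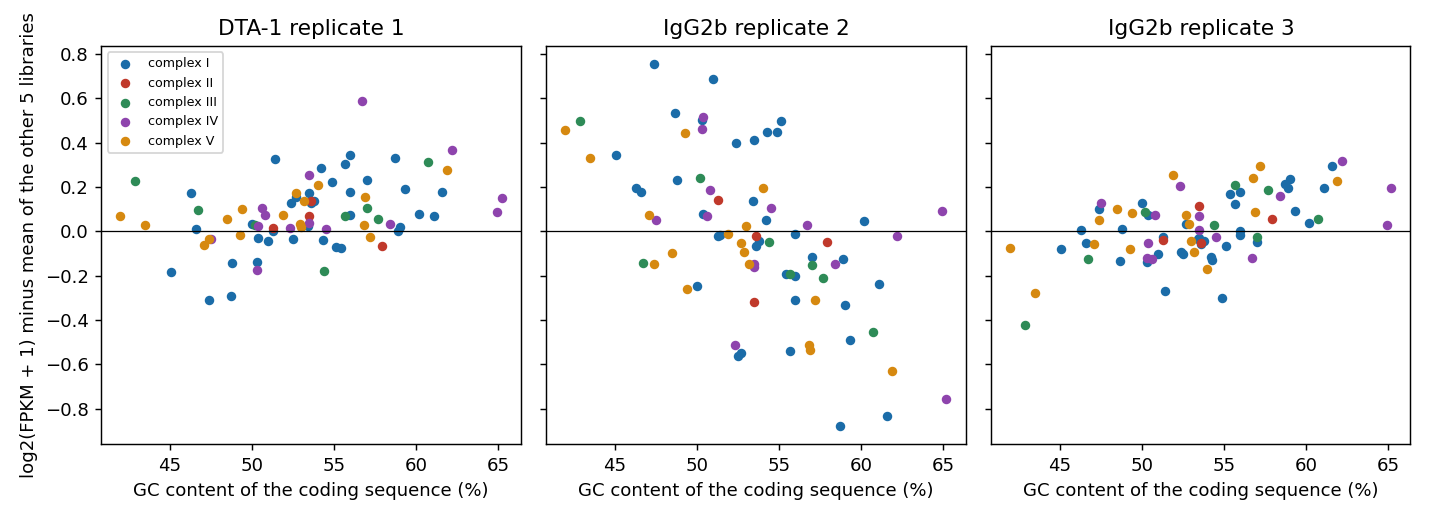
Deviation of each member from the mean of the other 5 libraries (log2 scale) against the GC content of its coding sequence in DTA-1 replicate 1, IgG2b replicate 2 and IgG2b replicate 3, with colours for complexes. The spread is widest in IgG2b replicate 2, where the deviation falls with GC content (Spearman's rho -0.55).

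Partners of the complexes outside the symbol rule also showed no call past the adjusted threshold. A first list joined subunits and electron carriers with coenzyme Q genes and other genes linked to the chain. Among its 21 tested genes, 1 was higher and 0 lower at an unadjusted p under 0.05 (background 6.22% and 7.73%), with a median log2 fold change of 0.05. Without IgG2b replicate 2 these numbers were 2 and 0 (background 6.61% and 8.88%), with a median of 0.07. With all libraries this 1 was Coq10b, which binds coenzyme Q, with 16.6, 13.9 and 14.6 FPKM in DTA-1 libraries, against 11.3, 11.7 and 11.6 FPKM in IgG2b libraries (log2 fold change 0.35 ± 0.11, limma adjusted p = 0.227; 0.36 without IgG2b replicate 2). Next by p were Coq9, a coenzyme Q synthesis gene (log2 fold change 0.28 ± 0.13, limma adjusted p = 0.406; 0.17 without IgG2b replicate 2), and Higd2a, which takes part in supercomplex formation (log2 fold change 0.29 ± 0.15, limma adjusted p = 0.46; 0.13 without IgG2b replicate 2). Cytochrome c (Cycs) had 56.1, 58.1 and 67.6 FPKM in DTA-1 libraries, against 63.0, 71.4 and 62.2 FPKM in IgG2b libraries, and cytochrome c1 of complex III (Cyc1) had 132 ± 15.6 FPKM with DTA-1 and 118 ± 12.0 FPKM with IgG2b (SD, n = 3 each). Their groups overlapped, as did those of Ndufab1, the acyl carrier protein of complex I, at 105 ± 7.61 FPKM with DTA-1 and 98.6 ± 17.7 FPKM with IgG2b (SD, n = 3 each). Among 50 assembly factors 1 was higher and 1 lower at an unadjusted p under 0.05 (background 6.22% and 7.73%), with a median of 0.06. Without IgG2b replicate 2, 3 were higher and 1 lower (background 6.61% and 8.88%), with a median of 0.03. Coa5, an assembly factor of cytochrome c oxidase, had 52.6, 56.1 and 57.4 FPKM in DTA-1 libraries, against 44.3, 46.0 and 45.2 FPKM in IgG2b libraries (log2 fold change 0.29 ± 0.10, limma adjusted p = 0.264; 0.30 without IgG2b replicate 2). Cmc2, known from yeast in the same pathway, had 5.96, 5.23 and 7.30 FPKM in DTA-1 libraries, against 10.4, 8.98 and 9.04 FPKM in IgG2b libraries (log2 fold change -0.55 ± 0.14, limma adjusted p = 0.157; -0.59 without IgG2b replicate 2). The complex I factor Ndufaf5 was next (log2 fold change 0.28 ± 0.14, limma adjusted p = 0.413; 0.18 without IgG2b replicate 2).

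Among 30 tested genes of mitochondrial biogenesis and mitochondrial DNA expression, 1 was higher and 0 lower at an unadjusted p under 0.05. Over all tested genes these shares were 6.22% and 7.73%. The median log2 fold change of the 30 genes was -0.0009. The numbers of higher and lower genes were the same without IgG2b replicate 2 (background 6.61% and 8.88%), with a median of 0.04. The higher gene with all libraries was Elac2, which trims the ends of tRNA precursors, with 27.7, 29.9 and 28.3 FPKM in DTA-1 libraries, against 22.8, 23.6 and 24.5 FPKM in IgG2b libraries (log2 fold change 0.27 ± 0.10, limma adjusted p = 0.308; 0.27 without IgG2b replicate 2). Tfam, which packages mitochondrial DNA and helps start its transcription, had 13.0, 12.9 and 14.6 FPKM in DTA-1 libraries, against 17.6, 17.6 and 14.8 FPKM in IgG2b libraries, below in every DTA-1 library (log2 fold change -0.28 ± 0.12, limma adjusted p = 0.359; -0.24 without IgG2b replicate 2). Polg2, the accessory subunit of the mitochondrial DNA polymerase, followed by p (log2 fold change -0.26 ± 0.13, limma adjusted p = 0.427; -0.23 without IgG2b replicate 2). Of the coactivators of mitochondrial biogenesis, Ppargc1a was between 0 and 0.0154 FPKM in all libraries, and Ppargc1b had 1.44, 0.955 and 0.901 FPKM in DTA-1 libraries, against 1.58, 0.986 and 1.13 FPKM in IgG2b libraries (log2 fold change -0.09 ± 0.16; -0.17 without IgG2b replicate 2). The transcription factor gene Nrf1 had 20.2, 17.0 and 17.4 FPKM in DTA-1 libraries, against 23.1, 19.1 and 18.8 FPKM in IgG2b libraries (log2 fold change -0.15 ± 0.13; -0.19 without IgG2b replicate 2). Gabpa, which encodes the DNA-binding subunit of GABP, had 16.3, 18.3 and 18.5 FPKM in DTA-1 libraries, against 17.1, 21.0 and 16.2 FPKM in IgG2b libraries (log2 fold change -0.02 ± 0.13; 0.08 without IgG2b replicate 2). Groups overlapped for Ppargc1b, Nrf1 and Gabpa.

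NRF1, GABP and YY1 are transcription factors known to control many respiratory chain genes, and part of the promoters hold their motifs. RefSeq promoter sequence (GRCm38.p6), 250 bases before to 50 bases after each start, was matched for 69 of 84 members in 75 windows, and 6 motifs were searched on both strands. The NRF1 motif, GCGCA and GCGC with any base between them, was in 17 of 69 members (24.6%), against 13.0% of tested genes and 5.2% of all genes with a window. The ETS motif CCGGAAG, which GABP binds, was in 16 (23.2%), against 22.8% of tested genes and 9.9% of all genes. The YY1 motif AAGATGGCG was in 8 (11.6%), against 4.2% and 1.6%. The E box CACGTG was in 10.1% of members, against 12.5% of tested and 8.1% of all genes, the CCAAT box (CCAAT) in 44.9%, against 43.5% and 41.1%, and the TATA box TATAAA in 10.1%, against 7.9% and 15.7%. The median log2 fold change of members with and without the NRF1 motif was 0.02 and 0.03, with and without the ETS motif 0.08 and 0.02, and with and without the YY1 motif -0.08 and 0.03. These medians include IgG2b replicate 2 and were not taken without it. Without that library, members with the YY1 motif had log2 fold changes of 0.16 (Ndufs4), 0.13 (Atp5j), 0.07 (Ndufa9), 0.03 (Ndufs6) and 0.0045 (Ndufc1). The others had -0.07 (Atp5j2), -0.19 (Ndufs7) and -0.29 (Atp5sl). No matches of different motifs overlapped in these windows, and a match is a description of letters, not of binding. Members without a window included Atp5a1, Cox4i1, Cox4i2, Cox6a2, Cox6c, Cox8c, Ndufa2, Ndufa4l2, Ndufb9, Ndufs1, Sdhc, Uqcrb, Uqcrc2 and Uqcrq. The stretches below show 1 member of complexes I, III, IV and V each, at most 150 bases 5′ to 3′ that hold no annotated exon, with NRF1 matches (Ndufb4, Cox6a1 and Atp5h) or the ETS match (Uqcrh) in capitals.
Ndufb4, chr16:37654454-37654603, minus strand: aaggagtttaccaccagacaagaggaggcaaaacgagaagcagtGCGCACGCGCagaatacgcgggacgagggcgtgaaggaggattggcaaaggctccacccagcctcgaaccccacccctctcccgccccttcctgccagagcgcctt
Uqcrh, chr4:116075072-116075221, minus strand: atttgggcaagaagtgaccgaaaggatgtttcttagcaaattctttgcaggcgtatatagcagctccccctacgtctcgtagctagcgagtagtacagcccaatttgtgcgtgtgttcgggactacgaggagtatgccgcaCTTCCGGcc
Cox6a1, chr5:115348982-115349129, minus strand: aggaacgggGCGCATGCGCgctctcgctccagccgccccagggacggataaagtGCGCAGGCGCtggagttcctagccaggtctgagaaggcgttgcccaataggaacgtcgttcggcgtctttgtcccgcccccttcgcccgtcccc
Atp5h, chr11:115419963-115420112, minus strand: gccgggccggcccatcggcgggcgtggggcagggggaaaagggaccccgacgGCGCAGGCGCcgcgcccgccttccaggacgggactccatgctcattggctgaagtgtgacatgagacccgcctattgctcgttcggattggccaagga

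Many of these short, abundant transcripts have close copies elsewhere in the genome. By BLAST of the coding sequence, 33 of 84 members had at least 1 annotated pseudogene copy with 90% identity over 50% of the length, with up to 13 for Atp5l, a small subunit of the ATP synthase. How reads shared with such copies were counted is not given in the sources used here, so the levels of these members are uncertain. The same holds for exons shared with genes on the opposite strand, as for Ndufa13 with Tssk6 (30.0% of its exon bases) and Atp5j with Gabpa (12.7%). It also holds for exons shared with genes on the same strand, as for Ndufb9 with Gm49356 (19.5%) and Atp5o with Donson (12.7%). The share of Atp5o is itself uncertain, since the annotated span under that symbol, chr16:91684398-91926982, does not reach its promoter window at chr16:91931581-91931880. The 84 genes lie on 19 chromosomes, with 3 on the X chromosome.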

How the data were processed

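RNA-seq of 6 libraries was analysed. Trizol RNA (1.3 ug each) went into NEBNext Ultra II Directional libraries, per the labels' protocols. For the FPKM values, the authors deposited 1 number per gene and library, and the submitters' processing notes name TopHat and the build mm10. No label or header names the unit. It was read from the values, which are not whole and of which the low ones step with the inverse of transcript length. The rough depth figure came from low values within a fixed range. The program behind the values, its annotation and its use of strand were not given in the sources used here. Group and replicate number follow the titles, since treatment tags name differing antibody numbers in replicates 2 and 3.

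The log2(FPKM + 1) values, a scale that understates changes of low genes, entered limma 3.58.1 in R 4.3.3 (trend and robust, group only, Benjamini-Hochberg adjustment, threshold 0.05) for the 10501 genes that reached 1 FPKM in 3 or more libraries. Coordinates came from GENCODE M21, copies from BLAST 2.17.0 and trends from mgcv 1.9.3. The fit was also run on simulated data with independent noise for each gene and planted changes larger than any seen among members. That simulation held no deviation shared by the genes of a library, such as that of IgG2b replicate 2. It therefore cannot show how well small changes are found in these libraries. Alternatives covered pseudocount, filter, scaling, weights, base composition, blocks and left-out libraries. Members, lists and naming rules were chosen with earlier results of these data known. Named members are the 3 highest and the lowest of each complex, up to 4 per direction without overlap or else the smallest p, complex II and isoform sets. From each list of partners the 3 genes with the smallest p and a fixed set are named. The values of 1 item that the rule names are not reported here. No protocol states a pairing, so numbers were not taken as pairs. Deviations of same-numbered libraries from their group means had correlations of 0.393, -0.101 and -0.129, and those of differently numbered libraries -0.42 to 0.485. With so few libraries these correlations cannot show whether any were paired.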

Additional observations from a re-analysis of the deposited data

How the results depend on the processing

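No member passed an adjusted p of 0.05 under any of the 18 alternative fits, and the smallest limma adjusted p of a member under any of them was 0.105. The replicate block left 0 member calls, beside 185 calls over all genes (4 without it). Percentages in parentheses are shares of all tested genes under the same setting. Equal library totals gave 4 members below without overlap (12.2%), 1 below at an unadjusted p under 0.05 (9.01%) and a complex II median of -0.0078. Quantile normalization gave 1 above at that p (6.39%) and 1 below without overlap (10.5%). Library quality weights gave 475 adjusted calls over all genes and 0 among members, with 1 above (8.93%) and 3 below (10.6%) at that p and medians of -0.0353 for all members, -0.0244 for complex I, -0.014 for complex II, -0.0436 for complex III and -0.0354 for complex V. Removing trends with GC content and length gave 1 above at that p (8.66%) and 2 below without overlap (11.7%). Leaving out both replicates numbered 1 gave 2 below at that p (6.12%), 14 below without overlap (19.9%) and a complex I median of -0.0001. With single libraries left out, members without overlap ranged from 5 to 14 above and 1 to 8 below, and those at an unadjusted p under 0.05 from 0 to 2 above and 0 to 3 below. The causes were not tested. Against the main values, 186 alternative values stayed within the tolerance and 31 moved. The number of libraries limits the intervals.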
